A study of Mus musculus with 4 samples.

Results

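The 35 genes described here encode the enzymes that make cholesterol and fatty acids in mouse cells, the sterol sensors that set the level of these enzymes, and the liver X receptors (LXRs) with the pumps that carry sterol out of the cell. They were taken by name, out of 47729 genes in the table, and all 35 were found. The names come from what is known of these pathways, but the choice was made with earlier results of these data known, so that the counts below describe the list and are no independent evidence of its direction. The tissue was the whole subcutaneous tumor that formed in C57BL/6 mice after a graft of Lewis lung carcinoma (LLC) cells, a line of the same mouse strain, and it was taken 5 days after the graft. In the LLC group the grafted cells were wild type. In the LLC-Chem group they had been transfected with a pEFIN plasmid encoding murine chemerin (1-157), a form of this secreted chemoattractant protein that is active without further processing. Mice of both groups carried no engineered allele that the labels name, and per the methods, unless stated otherwise, they were 6 to 10 weeks old. Each group had 2 sequenced pools of RNA, each made from 3 tumors, so that a pool is an average of animals and n is 2. Transfected cells were selected with G418 and individual clones were collected, so that the effect of chemerin, of transfection and of the choice of a clone cannot be told apart in this comparison.

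Cells make cholesterol from acetyl-CoA by way of mevalonate and farnesyl diphosphate, then squalene, lanosterol and a series of sterol intermediates. Transcription factors of the SREBP family raise the genes of this route when membrane sterol is low. SCAP escorts them out of the endoplasmic reticulum for cleavage, and the INSIG proteins hold them back when sterol is plentiful. LXRs work in the other direction: bound to oxysterols, they raise the exporters ABCA1 and ABCG1, and they also raise lipogenic genes.

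Read totals, estimated from the spacing of the values, lay between 28470000 and 33990000 per pool, and on these estimates 3 reads stood for 0.0883 to 0.105 RPM. RPM, the unit of all levels here, is the number of reads of a gene for every 1000000 reads counted on genes. Differences were tested on log2(RPM + 0.5) with limma over the 13694 genes whose mean was at least 1 RPM, and a gene was called at a Benjamini-Hochberg adjusted p under 0.05. Fold changes are LLC-Chem over LLC on that scale, which understates the change of low genes. The transfected gene itself, Rarres2, was at 102 and 98.2 RPM in the pools of LLC tumors, against 106 and 106 RPM for LLC-Chem (log2 fold change 0.08, SE 0.09, limma adjusted p = 0.541), so its level did not check the labels. Krt8, a keratin gene of simple epithelia, was at 167 and 152 RPM in LLC tumors and at 122 and 82.8 RPM in LLC-Chem tumors, with both LLC-Chem pools below both LLC pools (log2 fold change -0.67, SE 0.19, limma adjusted p = 0.0578). Krt18 was at 110.0 to 138.8 RPM and overlapped between the groups, whereas the lung and epithelial markers Nkx2-1, Sftpc, Epcam and Cdh1 lay between 0 and 1.40 RPM in every pool. Krt19, another epithelial keratin gene, was at 3.15 and 2.10 RPM in the LLC-Chem group and at 5.20 and 15.3 RPM in the LLC group. Gene positions are those of GRCm38. Of all genes tested, 9.54% were called higher and 13.5% lower in LLC-Chem.

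Cholesterol synthesis genes were lower in LLC-Chem tumors, along nearly the whole route. Of the 35 genes, 34 passed the limit on low values. In LLC-Chem, 21 of these (61.8%) were called lower and 3 (8.82%) higher, against 13.5% and 9.54% of all genes tested, and 10 were not called. The median log2 fold change was -0.69 over the 34 genes and -0.04 over all genes tested. The genes called higher were Insig2, Scd1 and Nr1h2, while Insig1 and Nr1h3, the closest relatives of Insig2 and Nr1h2, were called lower. Both LLC-Chem pools lay below both LLC pools for 27 of the 34 genes and above them for 5, where the shares over all genes tested were 39.3% and 33.1%. The pools overlapped for Pmvk and Tm7sf2. Since a tumor is a mixture, fewer cells of a type and less RNA per cell cannot be told apart for any of these genes.

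The 24 calls rested on a limit on low values and on having both pools of each group. When every gene above 0 was tested, none of the 24 kept an adjusted p under 0.05 (limma, 0.105 to 0.144), although all 24 had an unadjusted p under 0.05. Without 1 pool, whichever it was, no gene of the whole table was called, and the adjusted p of the 24 ran from 0.0548 to 0.311. In each of these 4 fits all 24 kept the sign of their change, and 21 to 24 of them had an unadjusted p under 0.05. On reads estimated from the values, edgeR's quasi-likelihood test called 19 of the 34 genes lower and 3 higher, where it called 11.7% and 11.3% of all genes tested. DESeq2 called 23 lower and 4 higher, where it called 16.5% and 13.7% of all genes tested.

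**Figure D1:**
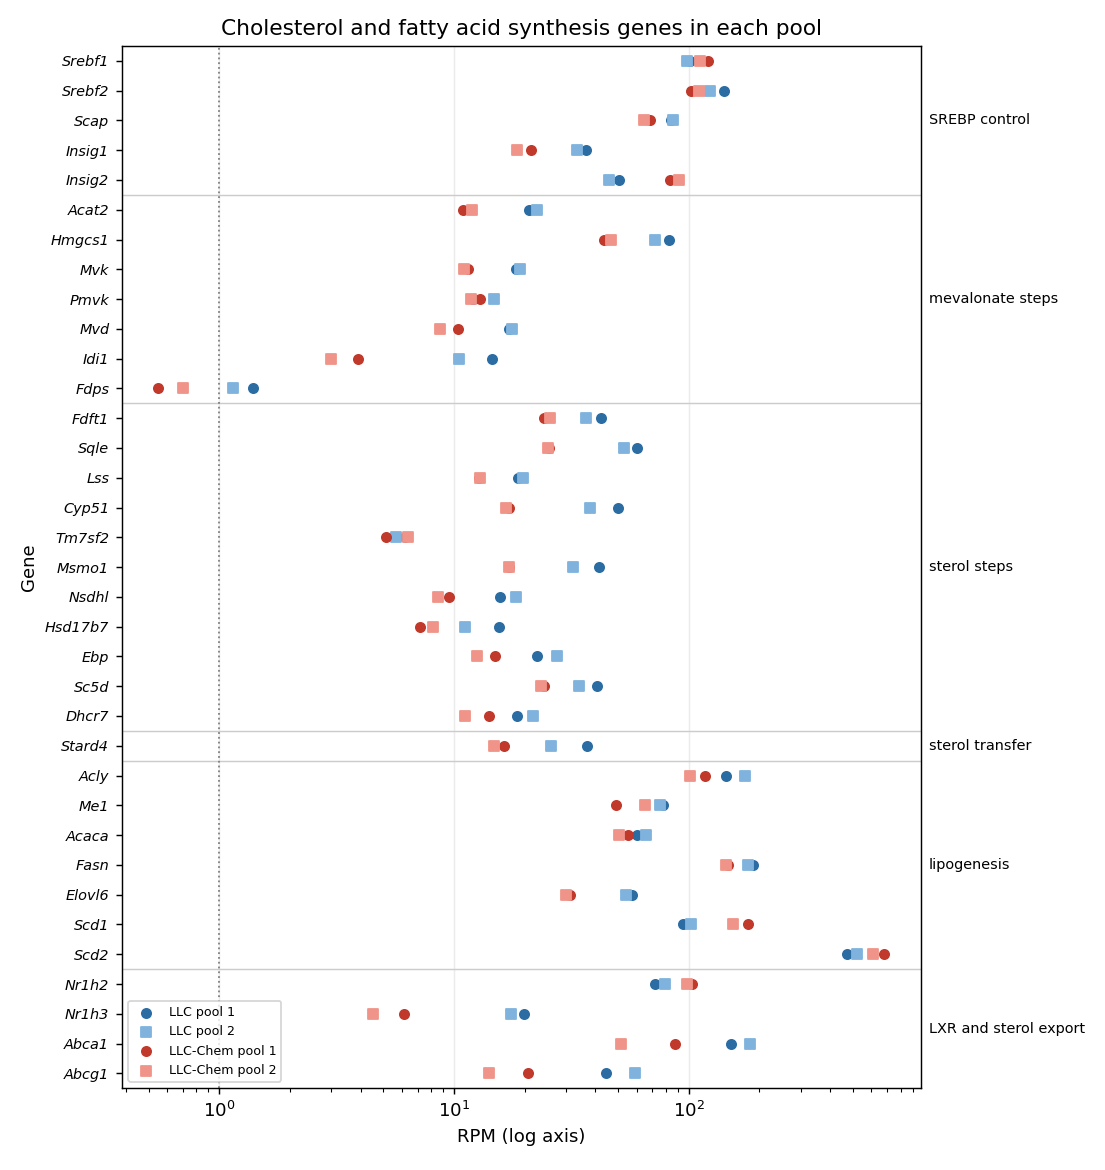
Level of each of the 35 genes in RPM on a log axis (horizontal), with the genes grouped by role on the vertical axis and 1 point per pool. The dotted line marks the limit of 1 RPM, and the red LLC-Chem points lie left of the blue LLC points for most enzymes of cholesterol synthesis, as for Idi1 at 3.90 and 2.998 against 14.5 and 10.5 RPM.

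Among the genes of SREBP control, the 2 INSIG genes moved in opposite directions. Insig1, which in many cells is itself raised by SREBPs, was at 36.7 and 33.4 RPM (LLC), compared with 21.2 and 18.5 RPM (LLC-Chem), a mean of 35.1 ± 2.30 RPM for LLC against 19.9 ± 1.87 RPM for LLC-Chem (SD, n = 2). Both LLC-Chem pools were below both LLC pools, and Insig1 (ENSMUSG00000045294, chr5:28071363-28078662, plus strand) fell (log2 fold change -0.81, SE 0.13, limma adjusted p = 0.0188). Insig2, the relative that is less dependent on SREBPs, was at 50.4 and 45.7 RPM in the pools of LLC tumors, against 82.9 and 91.4 RPM for LLC-Chem, or 48.0 ± 3.32 RPM for LLC against 87.1 ± 6.01 RPM for LLC-Chem (SD, n = 2). Insig2 (ENSMUSG00000003721, chr1:121304353-121332589, minus strand) rose (log2 fold change 0.85, SE 0.11, limma adjusted p = 0.0135), with no overlap between the groups. Per kilobase of exon, the mean level of Insig1 was 11.3 RPM per kb in LLC against 6.42 in LLC-Chem, and that of Insig2 was 13.8 against 25.1 RPM per kb. Insig2 thus went from slightly above the level of Insig1 to well above it.

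The factors themselves were not called. Srebf1, whose products act mainly on fatty acid synthesis, was at 100.9 and 98.7 RPM in LLC tumors and at 120.3 and 111 RPM in LLC-Chem tumors (log2 fold change 0.21, SE 0.10, limma adjusted p = 0.155). Srebf2, which acts mainly on cholesterol synthesis, was at 103 and 111 RPM in the LLC-Chem group and at 142 and 123 RPM in the LLC group (log2 fold change -0.30, SE 0.11, limma adjusted p = 0.105). Scap, the escort, was at 84.005 and 85.3 RPM (LLC), compared with 68.5 and 64.6 RPM (LLC-Chem) (log2 fold change -0.35, SE 0.10, limma adjusted p = 0.0525). The groups did not overlap for these 3 genes, with Srebf1 above and the other two below in LLC-Chem, but their differences did not pass the test. The cleaved, active forms of these proteins were not measured.

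All 18 enzymes of cholesterol synthesis had a lower mean in LLC-Chem. Their summed level was 498.9 and 455.6 RPM for LLC, and 265.5 and 261.8 RPM for LLC-Chem tumors. Of the 17 tested, 14 (82.4%) fell and none rose, where 13.5% and 9.54% of all genes tested were called, and the median log2 fold change was -0.77, against -0.04 over all genes tested. Mvk, Mvd, Fdft1, Lss, Nsdhl, Ebp, Sc5d and Dhcr7 lost their calls when the replicate number of the pools was a block in the limma fit. With 1 pool left out, none of the 17 was called.

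In the mevalonate branch, 5 of 6 tested genes fell, where 13.5% of all genes tested were called lower. Acat2, which joins acetyl-CoA units, fell from 20.9 and 22.7 to 10.9 and 11.99 RPM (log2 fold change -0.90, SE 0.14, limma adjusted p = 0.0178), but 39.1% of its 50-base words also occur in other genes, mainly Acat3, so that its reads could be split by the counting. Hmgcs1, which makes HMG-CoA, was at 82.6 and 72.0 RPM in the pools of LLC tumors, against 43.4 and 46.7 RPM for LLC-Chem, or 77.3 ± 7.49 RPM for LLC against 45.0 ± 2.33 RPM for LLC-Chem (SD, n = 2). It fell to 58.2% of its LLC mean (log2 fold change -0.77, SE 0.12, limma adjusted p = 0.0161), and both groups were tight around their means. The mevalonate kinase gene Mvk fell from 18.3 and 19.1 to 11.4 and 10.99 RPM (log2 fold change -0.72, SE 0.14, limma adjusted p = 0.0259), whereas Pmvk, the next kinase of the branch, was at 12.1 and 14.8 RPM in LLC tumors and at 12.9 and 11.8 RPM in LLC-Chem tumors, and it was not called (log2 fold change -0.11, SE 0.17, limma adjusted p = 0.646). Mvd, the decarboxylase that follows, fell from 17.1 and 17.7 to 10.4 and 8.70 RPM (log2 fold change -0.84, SE 0.16, limma adjusted p = 0.0249).

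Idi1, the isomerase that balances the 2 isoprene units, had the steepest fall of the enzymes tested. It was at 3.90 and 2.998 RPM in the LLC-Chem group and at 14.5 and 10.5 RPM in the LLC group, or 12.5 ± 2.83 RPM for LLC against 3.45 ± 0.636 RPM for LLC-Chem (SD, n = 2). The LLC-Chem mean was 27.5% of the LLC mean (log2 fold change -1.72, SE 0.24, limma adjusted p = 0.0143), and the log2 fold change ran from -1.94 to -1.49 when any 1 pool was left out. Idi1 (ENSMUSG00000058258, chr13:8885501-8892451, plus strand) shares 25.3% of its 50-base words with other genes, and its lowest pool held an estimated 100 reads. Fdps, the farnesyl diphosphate synthase gene, was at 1.40 and 1.15 RPM (LLC), compared with 0.5497 and 0.6996 RPM (LLC-Chem). It was under the limit on low values and was not tested, and 26.7% of its exon bases lie under the overlapping gene Gm43738.

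In the sterol branch, 9 of 11 genes fell, against 13.5% of all genes tested. Sqle, the squalene epoxidase gene and a rate-limiting step of this branch, was at 60.1 and 52.8 RPM in the pools of LLC tumors, against 25.4 and 25.0 RPM for LLC-Chem, or 56.4 ± 5.16 RPM for LLC against 25.2 ± 0.247 RPM for LLC-Chem (SD, n = 2). The 2 LLC-Chem pools were nearly equal, and Sqle (ENSMUSG00000022351, chr15:59315077-59331192, plus strand) fell to 44.7% of the LLC mean (log2 fold change -1.14, SE 0.12, limma adjusted p = 0.0109). Cyp51, which removes a methyl group from lanosterol, was at 49.8 and 37.9 RPM in LLC tumors and at 17.2 and 16.6 RPM in LLC-Chem tumors, or 43.9 ± 8.45 RPM for LLC against 16.9 ± 0.459 RPM for LLC-Chem (SD, n = 2). The LLC pools differed more from each other than the LLC-Chem pools did, but the groups were far apart, and Cyp51 (ENSMUSG00000001467, chr5:4081145-4104746, minus strand) fell to 38.6% (log2 fold change -1.34, SE 0.16, limma adjusted p = 0.0130).

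Other enzymes of the branch had log2 fold changes nearer to none than those of Cyp51 and Sqle, but no test compared them. That of Msmo1 (-1.07, SE 0.16) lay within the error of that of Sqle (-1.14, SE 0.12). Fdft1, the squalene synthase gene, fell from 42.2 and 36.6 to 24.2 and 25.7 RPM (log2 fold change -0.64, SE 0.13, limma adjusted p = 0.0267), with 18.3% of its exon bases under the neighboring Ctsb. Lss, which closes the sterol rings, fell from 18.7 and 19.7 to 12.8 and 12.9 RPM (log2 fold change -0.56, SE 0.14, limma adjusted p = 0.0397). The demethylation genes Msmo1 and Nsdhl fell with log2 fold changes of -1.07 and -0.87 (limma adjusted p = 0.0160 and 0.0240), Msmo1 from 41.6 and 32.1 to 17.1 and 17.2 RPM and Nsdhl from 15.7 and 18.3 to 9.54 and 8.55 RPM. Every LLC-Chem pool was below every LLC pool for these 4 genes.

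Of the 5 remaining genes of the branch, 3 fell (13.5% of all genes tested did) and 2 were not called. Ebp, the sterol isomerase gene, fell from 22.7 and 27.6 to 14.9 and 12.6 RPM (log2 fold change -0.84, SE 0.17, limma adjusted p = 0.0267). Sc5d, a desaturase gene, fell from 40.7 and 34.1 to 24.2 and 23.6 RPM (log2 fold change -0.63, SE 0.13, limma adjusted p = 0.0309). Dhcr7, which reduces 7-dehydrocholesterol to cholesterol, fell from 18.6 and 21.6 to 14.0 and 11.1 RPM (log2 fold change -0.66, SE 0.18, limma adjusted p = 0.0478), and this call was lost under both other scalings and by edgeR (adjusted p = 0.0584 with TMM scaling of the limma fit). Hsd17b7 was at 7.20 and 8.15 RPM in the LLC-Chem group and at 15.5 and 11.1 RPM in the LLC group, and it was not called (log2 fold change -0.74, SE 0.21, limma adjusted p = 0.0551), although its groups did not overlap. Tm7sf2, a sterol reductase gene, was at 6.20 and 5.65 RPM (LLC), compared with 5.15 and 6.35 RPM (LLC-Chem) (log2 fold change -0.05, SE 0.19, limma adjusted p = 0.877), so that no difference was detected at a level of about 6 RPM, and 12.1% of its exon bases lie under Vps51.

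**Figure D2:**
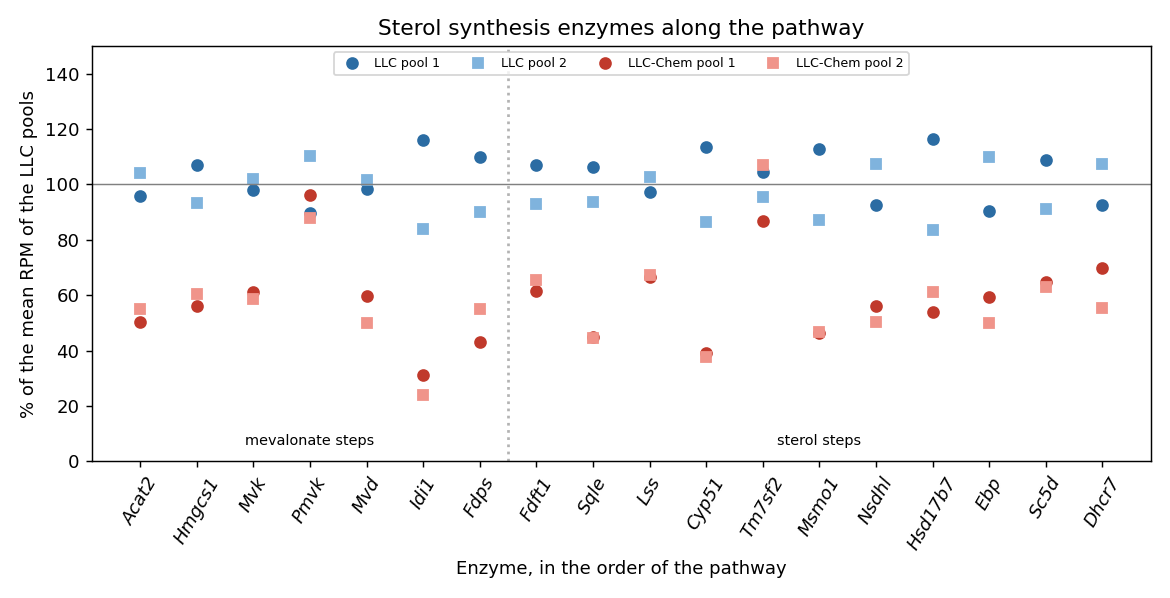
Level of the 18 enzymes of cholesterol synthesis in each pool as a percentage of the mean of the 2 LLC pools (vertical axis), ordered along the route from acetyl-CoA on the horizontal axis, with 1 point per pool. The LLC-Chem pools lie lowest for Idi1, at 31.1% and 23.9%, and they overlap the LLC pools only for Pmvk and Tm7sf2.

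Stard4, which carries sterol between membranes, was the only gene of sterol transfer among the 35. It was at 36.8 and 25.9 RPM in the pools of LLC tumors, against 16.3 and 14.7 RPM for LLC-Chem, and it fell (log2 fold change -0.97, SE 0.20, limma adjusted p = 0.0278). The LLC pools were further apart than the LLC-Chem pools, and without the first LLC pool the log2 fold change was -0.72, against -1.22 without the second.

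Promoters of these genes were searched for short motifs known from the control of sterol genes, because the enzymes moved together. RefSeq windows of 250 bases before the start (GRCm38.p6) were held for 28 of the 35 genes, in 38 windows, and the same search was run on 32851 windows of 27025 genes, both strands. Stard4, Fdps, Sqle, Scd2, Scd1, Abcg1 and Fdft1 had no entry. The motifs were the sterol element form TCACNCCAC, the CCAAT box, the LXR-type direct repeat (GGTNA, any 5 bases, GGTNA), and the E box CACGTG, and among these windows the only overlapping matches were 2 of CCAAT in Fasn. CCAAT was in a window of 20 of the 28 genes, and of 14 of the 15 mevalonate and sterol enzymes, where 37.5% of all genes had it. The 14 included Pmvk, Hsd17b7 and Tm7sf2, which were not called. TCACNCCAC was in Hmgcs1 alone of the 28, against 1.22% of all genes. The direct repeat was in Abca1, Fasn and Srebf1, against 0.707% of all genes, and the E box in 6 of the 28, against 6.86%. A match of letters is a description and shows no binding.

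The windows below show Hmgcs1, Mvd, Ebp and Sc5d as enzymes that fell, Insig2 as the INSIG gene that rose and Abca1 as an LXR target. None of their bases lie under an annotated exon, and each reads 5′ to 3′ toward the start, with the motif matches of either strand in capitals.
Hmgcs1, chr13:119690101-119690350, plus strand: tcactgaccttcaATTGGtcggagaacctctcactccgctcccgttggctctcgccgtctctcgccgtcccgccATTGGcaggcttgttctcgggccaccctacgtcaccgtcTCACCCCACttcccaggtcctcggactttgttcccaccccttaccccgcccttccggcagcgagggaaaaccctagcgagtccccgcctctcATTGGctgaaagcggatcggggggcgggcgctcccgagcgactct
Mvd, chr8:122443423-122443672, minus strand: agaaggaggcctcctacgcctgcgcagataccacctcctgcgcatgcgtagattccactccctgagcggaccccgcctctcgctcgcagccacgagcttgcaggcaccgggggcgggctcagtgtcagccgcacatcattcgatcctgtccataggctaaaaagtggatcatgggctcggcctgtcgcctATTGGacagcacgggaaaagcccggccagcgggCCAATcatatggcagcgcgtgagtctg
Ebp, chrX:8193513-8193762, minus strand: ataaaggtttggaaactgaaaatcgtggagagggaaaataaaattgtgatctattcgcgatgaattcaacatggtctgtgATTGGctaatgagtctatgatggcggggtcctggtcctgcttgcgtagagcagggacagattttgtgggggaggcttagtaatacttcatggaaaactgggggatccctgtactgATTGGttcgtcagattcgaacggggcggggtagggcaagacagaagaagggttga
Sc5d, chr9:42264301-42264550, minus strand: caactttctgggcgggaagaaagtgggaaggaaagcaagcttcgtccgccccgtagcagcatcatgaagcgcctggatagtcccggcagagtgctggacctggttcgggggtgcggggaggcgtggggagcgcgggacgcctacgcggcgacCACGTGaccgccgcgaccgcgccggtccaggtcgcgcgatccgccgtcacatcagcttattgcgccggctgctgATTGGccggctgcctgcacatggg
Insig2, chr1:121332590-121332839, minus strand: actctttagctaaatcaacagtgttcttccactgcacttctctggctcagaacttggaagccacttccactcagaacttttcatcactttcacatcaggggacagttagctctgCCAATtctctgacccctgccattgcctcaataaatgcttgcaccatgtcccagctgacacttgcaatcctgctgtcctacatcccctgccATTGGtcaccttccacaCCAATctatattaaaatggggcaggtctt
Abca1, chr4:53159896-53160145, minus strand: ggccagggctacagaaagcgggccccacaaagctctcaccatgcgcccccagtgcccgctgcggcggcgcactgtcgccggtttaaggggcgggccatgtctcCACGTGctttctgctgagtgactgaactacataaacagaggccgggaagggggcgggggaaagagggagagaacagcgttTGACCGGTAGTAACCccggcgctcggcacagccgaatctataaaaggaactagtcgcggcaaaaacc
In Hmgcs1 the sterol element lies 137 to 129 bases before the start, and CCAAT matches begin 237, 176 and 45 bases before it. Sc5d holds an E box at 98 to 93 bases and CCAAT at 24 to 20 bases. Insig2, which rose, holds 3 CCAAT matches beginning 136, 46 and 29 bases before the start, while the 2 further windows held for this gene, which lie partly under exons and are not shown, have none. In Abca1 the direct repeat lies at 67 to 53 bases and an E box at 147 to 142 bases.

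The 7 lipogenic genes did not move as a block. Elovl6, which lengthens palmitate to stearate, was at 57.4 and 54.3 RPM in LLC tumors and at 31.1 and 30.0 RPM in LLC-Chem tumors, or 55.9 ± 2.19 RPM for LLC against 30.6 ± 0.742 RPM for LLC-Chem (SD, n = 2), and it fell (ENSMUSG00000041220, chr3:129532355-129638495, plus strand, log2 fold change -0.86, SE 0.11, limma adjusted p = 0.0130). Scd1, the desaturase that makes oleate and palmitoleate, was at 179 and 155 RPM in the LLC-Chem group and at 94.6 and 102 RPM in the LLC group, or 98.3 ± 5.23 RPM for LLC against 167 ± 17.2 RPM for LLC-Chem (SD, n = 2), and it rose (ENSMUSG00000037071, chr19:44394455-44407879, minus strand, log2 fold change 0.76, SE 0.11, limma adjusted p = 0.0161). The groups were well separated for both genes, in opposite directions, although their products act in successive steps on the same chain. Acly, which supplies cytosolic acetyl-CoA, fell from 144 and 173 to 117 and 101.3 RPM (log2 fold change -0.53, SE 0.14, limma adjusted p = 0.0447), and this call too was lost with TMM or median-of-ratios scaling and by edgeR.

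The central enzymes of fatty acid synthesis were not called. Fasn, the fatty acid synthase gene, was at 188 and 179 RPM (LLC), compared with 146 and 144 RPM (LLC-Chem) (log2 fold change -0.34, SE 0.09, limma adjusted p = 0.0531). Acaca, the acetyl-CoA carboxylase gene, was at 60.02 and 66.1 RPM in the pools of LLC tumors, against 55.2 and 50.4 RPM for LLC-Chem (log2 fold change -0.25, SE 0.11, limma adjusted p = 0.145). The malic enzyme gene Me1 was at 77.9 and 75.7 RPM in LLC tumors and at 48.8 and 65.4 RPM in LLC-Chem tumors (log2 fold change -0.44, SE 0.16, limma adjusted p = 0.0945), and its log2 fold change ran from -0.65 to -0.23 with 1 pool left out. The LLC-Chem pools lay below the LLC pools for these 3 genes, by less than the test required. Scd2, the desaturase with the highest level of the 35 genes per kilobase of exon (90.9 RPM per kb in LLC against 118 in LLC-Chem), was at 682 and 607 RPM in the LLC-Chem group and at 470.4 and 522 RPM in the LLC group, and it was not called (log2 fold change 0.38, SE 0.13, limma adjusted p = 0.0856), though both LLC-Chem pools were above both LLC pools and DESeq2 called it higher.

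**Figure D3:**
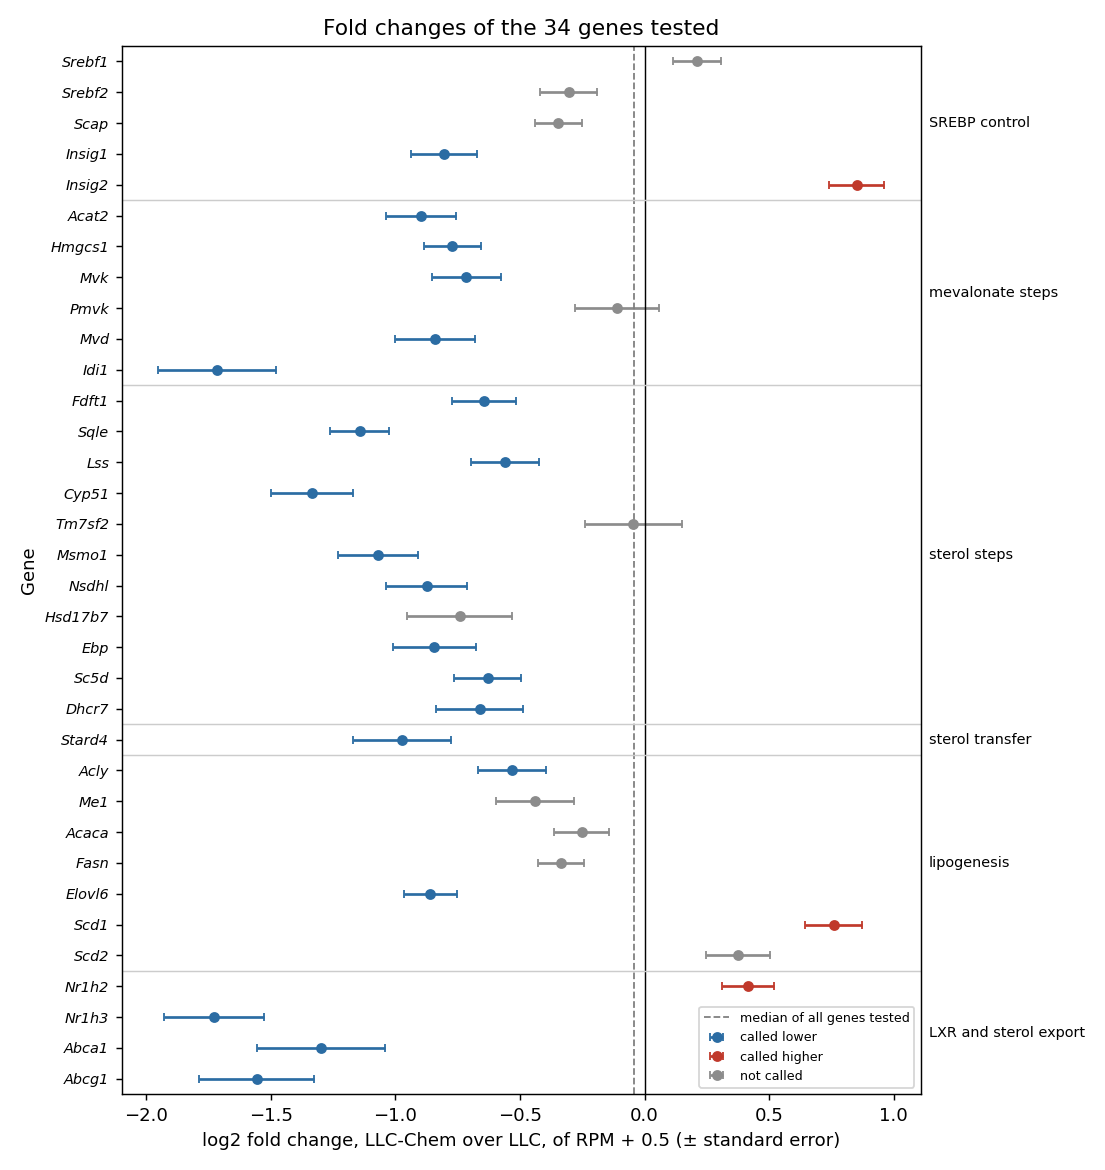
Log2 fold change of the 34 tested genes on log2(RPM + 0.5) (LLC-Chem over LLC, horizontal axis, bars 1 SE), grouped by role, with blue points for genes called lower, red points for genes called higher and gray points for the rest. The points of the mevalonate and sterol steps lie at or left of -0.05, whereas Insig2 (0.85), Scd1 (0.76) and Nr1h2 (0.42) lie to the right of 0.

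Of the 34 tested genes, Nr1h3 and Idi1 had the steepest falls. Nr1h3, which encodes LXRα, the form found in macrophages, liver and fat, was at 19.8 and 17.5 RPM (LLC), compared with 6.15 and 4.498 RPM (LLC-Chem), or 18.6 ± 1.63 RPM for LLC against 5.32 ± 1.17 RPM for LLC-Chem (SD, n = 2). It fell to 28.6% of the LLC mean (ENSMUSG00000002108, chr2:91184061-91202834, minus strand, log2 fold change -1.73, SE 0.20, limma adjusted p = 0.0126). Nr1h2, which encodes the widely expressed LXRβ, was at 71.8 and 79.6 RPM in the pools of LLC tumors, against 104 and 98.3 RPM for LLC-Chem, and it rose (log2 fold change 0.42, SE 0.10, limma adjusted p = 0.0429), a call that was lost without the mean-variance trend. The pools of the groups did not overlap for either receptor.

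Both exporters fell. Abca1, which passes cholesterol to lipid-poor apolipoprotein, was at 151 and 182 RPM in LLC tumors and at 87.4 and 51.6 RPM in LLC-Chem tumors, or 167 ± 21.8 RPM for LLC against 69.5 ± 25.3 RPM for LLC-Chem (SD, n = 2). It lies at chr4:53030787-53159895 on the minus strand, and it fell (log2 fold change -1.30, SE 0.26, limma adjusted p = 0.0266). Abcg1, which passes it to HDL particles, was at 20.7 and 14.0 RPM in the LLC-Chem group and at 44.4 and 59.0 RPM in the LLC group (ENSMUSG00000024030, chr17:31057675-31117988, plus strand, log2 fold change -1.56, SE 0.23, limma adjusted p = 0.0159). For both genes the second LLC-Chem pool was clearly the lowest and the second LLC pool the highest. Left-out pools moved the log2 fold change between -1.68 and -0.92 for Abca1 and between -1.83 and -1.28 for Abcg1, with the smallest falls when the second LLC-Chem pool was left out.

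A ratio of RPM values within a pool does not depend on the scaling of that pool. The ratio of Insig1 to Insig2 was 0.728 and 0.732 in the LLC pools and 0.256 and 0.203 in the LLC-Chem pools, a difference of -1.66 on the log2(RPM + 0.5) scale that was used for every pair. The ratio of Nr1h3 to Nr1h2 was 0.276 and 0.220 in LLC and 0.0592 and 0.0457 in LLC-Chem, a log2 difference of -2.14. For both pairs, and also for Scd1 over Scd2 given next, the 2 groups of ratios were far apart compared with the pools of 1 group. The ratio of Srebf1 to Srebf2 was 0.712 and 0.805 in LLC and 1.17 and 1.00 in LLC-Chem, a log2 difference of 0.52, and that of Scd1 to Scd2 was 0.201 and 0.195 in LLC and 0.263 and 0.255 in LLC-Chem, a log2 difference of 0.38. The exporters kept closer ratios, with Abca1 over Abcg1 at 3.40 and 3.09 in LLC and 4.21 and 3.67 in LLC-Chem, a log2 difference of 0.26. With 2 pools against 2, the two-sided exact permutation test gave p = 0.333 for each of the 5 ratios, the smallest value that it can give.

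**Figure D4:**
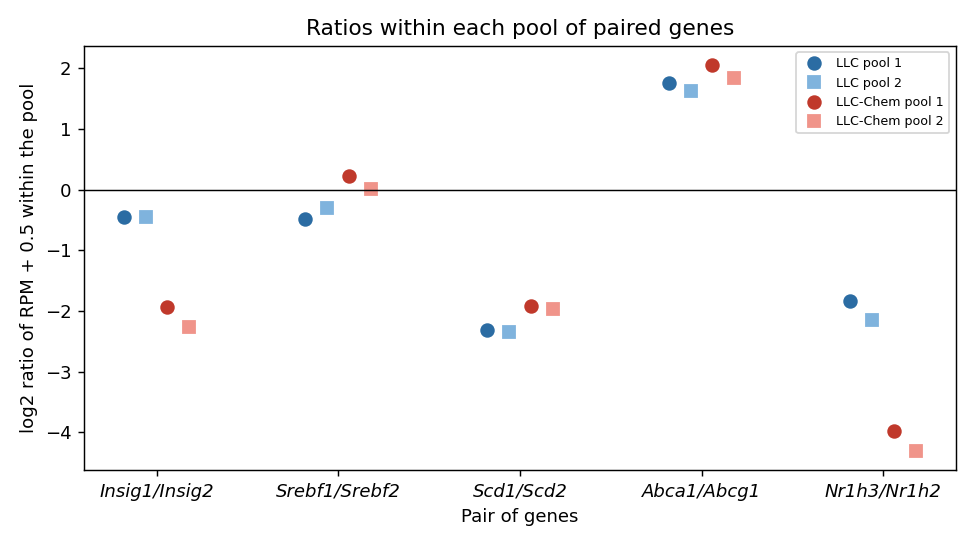
Log2 ratio of RPM + 0.5 for 5 pairs of related genes (vertical axis, the first gene over the second) in each of the 4 pools, with 1 point per pool. The LLC and LLC-Chem points are widest apart for Nr1h3 over Nr1h2 (difference -2.14) and Insig1 over Insig2 (-1.66).

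Per kilobase of exon, the order of the 35 genes changed between the groups. In LLC the highest means were Scd2 (90.9 RPM per kb), Acly (30.0), Nr1h2 (22.6) and Scd1 (20.1), and in LLC-Chem they were Scd2 (118), Scd1 (34.1), Nr1h2 (30.1) and Insig2 (25.1). Insig2 stood at rank 11 in LLC and rank 4 in LLC-Chem. Nr1h3 went from rank 23 to rank 30, Cyp51 from 16 to 23 and Sqle from 15 to 20. In LLC-Chem, the pools of Scd1 and Nr1h2 (31.6 to 36.6 and 29.3 to 30.9 RPM per kb) did not overlap, and no test was run between neighbors in this order. Fdps was lowest in both groups, at 0.303 and 0.148 RPM per kb.

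Other genes of these pathways, which were not among the 35, were called in both directions. Of 50 tested, 6 (12%) were called higher and 8 (16%) lower, near the shares of 9.54% and 13.5% over all genes tested, and the median log2 fold change was -0.07 (-0.04 over all genes tested). The counts include Cyp46a1, Soat2 and Scd4, which reached the mean of 1 RPM only through the group in which they were higher. Their calls support nothing, and the shares were not worked out without them. Among 17 other genes of sterol handling, Mbtps1, the site-1 protease gene that cuts SREBPs, rose from 211 and 241 to 307 and 308 RPM (log2 fold change 0.45, SE 0.11, limma adjusted p = 0.0424), and the cholesterol 24-hydroxylase gene Cyp46a1 was at 0.650 and 0.950 RPM (LLC), compared with 1.90 and 2.70 RPM (LLC-Chem). Soat2, which esterifies cholesterol, was at 2.70 and 2.60 RPM in the pools of LLC tumors, against 1.15 and 0.5997 RPM for LLC-Chem. Cyp27a1, the sterol 27-hydroxylase gene whose product makes an LXR ligand, fell from 16.4 and 23.7 to 9.14 and 6.20 RPM (log2 fold change -1.33, SE 0.26, limma adjusted p = 0.0266). The other 13 were not called.

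Among 24 other tested genes of fatty acid synthesis, 4 (16.7%) were called higher and 4 (16.7%) lower, where the shares over all genes were 9.54% and 13.5%. Of the 4 called higher, Acacb rose from 1.499 and 1.55 to 3.65 and 3.20 RPM (log2 fold change 0.95). The acetate-activating Acss2 rose from 6.10 and 7.95 to 11.5 and 13.2 RPM (0.78), and the elongase gene Elovl5 from 110.3 and 114 to 154 and 171 RPM (0.53). Their limma adjusted p ran from 0.0254 to 0.0433. The desaturase gene Scd4, at 0.400 and 0.400 RPM in LLC and 1.65 and 2.50 RPM in LLC-Chem, passed the limit only through LLC-Chem. It is in the count of 4, and its call supports nothing. Those called lower were Aacs from 49.97 and 46.5 to 35.8 and 36.9 RPM, the acyl-CoA synthetase gene Acsl5 from 179 and 164 to 117 and 108 RPM, the delta-6 desaturase gene Fads2 from 10.99 and 14.6 to 6.20 and 6.05 RPM and Hsd17b12 from 125 and 112 to 84.5 and 78.4 RPM, with log2 fold changes of -0.40, -0.61, -0.99 and -0.53 (limma adjusted p = 0.0200 to 0.0478). Of 9 other LXR partners and targets, 2 fell, Abca7 (log2 fold change -0.50, limma adjusted p = 0.0386) and the phospholipid-remodeling gene Lpcat3 (log2 fold change -0.70, SE 0.13, limma adjusted p = 0.0245), and none rose.

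Markers of the cells that a tumor can hold moved as well. The summed level of the macrophage markers was 5182 and 8297 RPM for LLC, and 4297 and 2373 RPM for LLC-Chem tumors. Of 10 tested, 4 fell (Cd14, Csf1r, Fcgr1 and Itgam) and 9 had both LLC-Chem pools below both LLC pools, where 13.5% and 39.3% of all genes did. None was listed at 0 and the median log2 fold change was -0.94. The first LLC-Chem pool was above the second for all 10 macrophage markers and for all 4 genes of the LXR and export group, and for 10 of the 17 tested enzymes of cholesterol synthesis. The same order held for all 6 endothelial, all 5 fibroblast and all 3 tested adipocyte markers, so that it was not particular to macrophage markers. Over all 13694 genes tested, 7060 had this order. The second LLC pool was above the first for 7 of the 10 markers, 3 of the 4 LXR and export genes, 8 of the 17 enzymes, all 5 fibroblast markers and none of the 6 endothelial markers. Endothelial markers fell in 5 of 6 cases (13.5% of all genes), with sums of 223.7 and 152.9 RPM for LLC, and 57.9 and 33.0 RPM for LLC-Chem tumors. Fibroblast markers summed to 11800 and 20339 RPM for LLC, and 8559 and 6870 RPM for LLC-Chem tumors, with 1 called higher (Pdgfra) and 2 lower (Col1a1 and Col1a2) of 5, against 9.54% and 13.5% of all genes. The 2 collagen genes carried the sum, while Dcn, Lum and Pdgfra had both LLC-Chem pools above both LLC pools, and the median log2 fold change of the list was 0.72. The part of these cells in the results on sterol genes was not tested.

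Markers of other cells that make much lipid were low. The adipocyte markers summed to 28.7 and 20.7 RPM for LLC, and 43.4 and 15.5 RPM for LLC-Chem tumors. Of 3 tested, 1 (Cfd) was called higher, where 9.54% of all genes tested were. Cfd went from 1.40 and 1.40 to 15.1 and 4.10 RPM, with the LLC-Chem pools far apart (log2 fold change 2.16, SE 0.56, limma adjusted p = 0.0466). The Cfd call was kept in 6 of 11 alternatives, and its log2 fold change ran from 1.28 to 3.04 with 1 pool left out. Fabp4, the most abundant marker of the list, was at 25.2 and 17.6 RPM in LLC tumors and at 19.2 and 8.85 RPM in LLC-Chem tumors, highest in the first LLC pool, and was not called (log2 fold change -0.67, SE 0.38, limma adjusted p = 0.231). The fat-cell genes Adipoq and Plin1 lay between 0.75 and 3.80 RPM and between 0.25 and 1.55 RPM, highest in the first LLC-Chem pool. Scd1 was also highest in that pool, and the part of fat cells in its level was not tested. The 4 sebocyte markers summed to at most 0.85 RPM in any pool, and Mc5r was listed at 0 in all 4. Of the keratinocyte genes, Krt5 and Krt14 were at or under 0.05 RPM and Krt10 at 2.05 to 4.35 RPM. Of the muscle genes, Ckm and Myh4 were listed at 0 in all pools, while Mylpf lay at 0.65 to 1.05 RPM and Acta1 at 0.10 to 0.50 RPM.

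**Figure D5:**
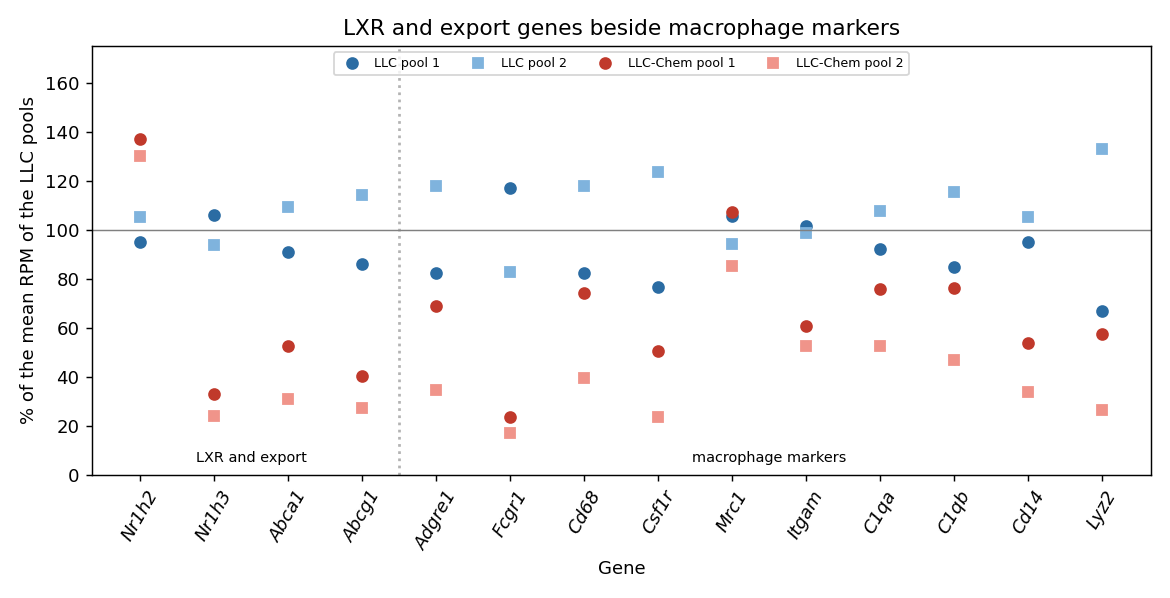
Level in each pool as a percentage of the mean of the 2 LLC pools (vertical axis) for the 4 LXR and export genes and 10 macrophage markers, with 1 point per pool. The second LLC-Chem pool is the lowest for Abca1 (31.0%), Abcg1 (27.2%), Csf1r (23.4%) and every other gene drawn except Nr1h2.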

How the data were processed

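RNA was measured in 4 pools, 2 per group, each of 3 tumors taken on day 5. Per the methods, paired-end reads from TruSeq libraries were aligned with STAR to GRCm38.p4/mm10 and counted with HTSeq on Ensembl annotation release 84. Versions and strand setting are not given in the sources used here. The deposited values are RPM, which the authors scaled to 1000000 counted reads per pool. All values above 0 (100%) were within 0.1 step of a whole multiple of about 0.05 RPM. This step is not 1 read: the values behave as counts scaled to about 20000000 reads per pool and rounded up. Pool totals were fitted to that spacing on a grid of 1000 reads, which gave 1.42 to 1.70 reads per step, and each gene's reads were estimated from its step. The read totals, the floor of 3 reads and the edgeR and DESeq2 results rest on these estimates.

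Positions, exon lengths and overlaps came from GENCODE M21 (GRCm38), which held 47224 of 47729 gene IDs (98.9%), and promoters from RefSeq. The main test was limma 3.58.1 (R 4.3.3) on log2(RPM + 0.5), empirical Bayes with trend, for the 13694 genes whose mean reached 1 RPM, Benjamini-Hochberg over all of them. It was checked on simulated data with a single fixed spread for all genes and pools. Real pools need not have such a spread, so its error rate here is not known. The alternatives were other pseudocounts (0.1, 1), scalings, filters, edgeR 4.0.16 and DESeq2 1.42.0 on the estimated reads, the replicate number as a block, and each pool left out. Lists were described by counts and medians, with no set test. All 35 genes may be named, other pathway genes if called, and markers with their values. The members and lists were chosen with earlier results of these data known. Nothing says that the pools are separate experiments, so p-values measure only the spread between pools, which may be technical in part. The floor of 3 reads covers counting error only.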

Additional observations from a re-analysis of the deposited data

How the results depend on the processing

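Testing every gene above 0 left 1 gene higher and 0 lower in the table and 0 of the 35 genes in either direction, although 7397 genes and 30 of the 35 had an unadjusted p under 0.05 in limma. With 1 pool left out, calls went from 0 to 0 over all genes and over the 34 tested here, with 2578 to 4973 genes and 23 to 26 of the 34 at an unadjusted p under 0.05. Such a fit assumes that the lone pool varies like the other group. The medians were then -0.73 to -0.67 over the 34 tested genes, -0.33 to -0.20 for SREBP control and -0.83 to -0.77 for the mevalonate steps.

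The replicate number as a block gave 549 genes higher and 1064 lower, with 12 of the 34 lower. Mvk, Mvd, Fdft1, Lss, Nsdhl, Ebp, Sc5d, Dhcr7, Acly and Nr1h2 lost their calls. Same-numbered pools did not deviate together (correlation -0.14 over 13694 genes). That value compares a single difference between pools in each group, so it cannot tell whether same-numbered pools shared a batch. Crossed pairing, chosen after seeing the data, gave 1579 higher and 2320 lower.

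The median over the tested genes (34, or 35 with every gene above 0) was -0.71 with a pseudocount of 0.1, -0.67 with 1, -0.64 with TMM scaling, -0.65 with median-of-ratios scaling, -0.66 with every gene above 0 and -0.66 by edgeR. The median of the mevalonate steps was -0.76 with TMM scaling, -0.77 with median-of-ratios scaling and -0.77 with every gene above 0. Tm7sf2 turned to 0.0062 by edgeR and ran from -0.184 to 0.0937 with 1 pool left out (above 0 without the first LLC or the first LLC-Chem pool), and Pmvk ran from -0.252 to 0.0326 (above 0 without the second LLC pool). None of these was called, and the causes were not tested. Acly and Dhcr7 lost their calls with either other scaling, by edgeR and without the trend, where Nr1h2 did too. DESeq2 added Hsd17b7, Fasn and Scd2. In each fit of the 34 tested genes 28 or 29 had a negative log2 fold change. Depth limits Fdps, with an estimated 18 reads in its lowest pool, and Idi1, with 100.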
